A study of Sus scrofa with 4 samples.

Results

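The genes described here are the translation initiation factors of pig skeletal muscle, the proteins that bring a ribosome to the start codon of an mRNA. Every gene whose symbol began with EIF1, EIF2, EIF3, EIF4, EIF5 or EIF6 was taken. The Y-linked copy EIF1AY, the eIF2 kinases (EIF2AK), the eIF4E-binding proteins (EIF4EBP) and the eIF4E transporter (EIF4ENIF1) were left out. This gave 43 of the 29692 gene symbols measured, each with 1 row in the table, and left out 9 symbols. Muscle of pigs (Sus scrofa) was biopsied from the Hampshire breed (2 libraries) and the Mali breed (2 libraries), breeds that differ in muscularity, and RNA was sequenced. No treatment separates the groups, and the labels give neither the age and sex of the pigs nor the muscle sampled. Whether the libraries of a breed came from separate animals is not stated, so each p-value reflects the spread among these 4 samples alone, which may be technical. The values are FPKM, fragments per kilobase of transcript scaled to the mapped total, which can be compared between genes because they are scaled to length.

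In textbook order, eIF2 carries the initiator tRNA and GTP to the small ribosomal subunit, and eIF2B recharges eIF2 with GTP after each round. The large eIF3 complex holds the small subunit together with mRNA, eIF1 and eIF1A guard the choice of start codon, and eIF5 makes eIF2 hydrolyse its GTP. The eIF4F complex (cap-binding eIF4E, scaffold eIF4G and helicase eIF4A, helped by eIF4B and eIF4H) opens the capped end of the mRNA, and eIF5B joins the large subunit. In muscle these steps are where insulin and mTOR signalling, feeding and loading are known to act on protein synthesis, mostly through phosphorylation, which RNA levels do not show.

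Depth is unknown, as FPKM were deposited without counts. Per library, total FPKM came to 988614 and 756253 for Hampshire, against 516463 and 894809 for Mali, of which genes of the mitochondrial genome took 42.5% and 21.3% in Hampshire against 19.4% and 17.1% in Mali. The 7 skeletal muscle markers in the table (ACTA1, CKM, DES, TTN, MYLPF, TNNT3 and PYGM) were above 1 FPKM in every library. MB, also on that list, was not matched. Markers of other cells were present too. The 7 fibroblast and matrix markers summed to 478 and 1447 FPKM in Hampshire and to 105 and 351 in Mali, with 4 of 7 separated by breed. The 7 macrophage markers summed to 47.1 and 82.4 FPKM in Hampshire against 32.5 and 21.0 in Mali, with 5 of 7 separated as higher. Only genes at 1 FPKM in at least 2 libraries were tested. LYZ, among the 5, reached this level in Hampshire alone, so its separation was fixed by that filter. The 3 smooth muscle markers summed to 47.5 and 28.3 FPKM in Hampshire against 10.4 and 8.61 in Mali, with 1 separated as higher. So were 2 of the 7 skeletal muscle markers, ACTA1 and CKM, and 1 of 5 endothelial markers, but no adipocyte marker. No marker on any of these lists was separated as lower, where 23.6% of all genes tested were. Among red cell markers, 2 were in the table, and haemoglobin beta was at 2525 and 3708 FPKM in Hampshire against 87.1 and 5469 in Mali. The part of these cells in the results below was not tested, and in bulk tissue fewer cells of a type cannot be told apart from less RNA per cell.

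The 43 factors covered a wide range of levels in muscle. The most abundant was EIF1, the start codon fidelity factor, at 1008 and 643 FPKM in the Hampshire pair, against 1065 and 1106 in the Mali pair. EIF4A2, one of the helicase paralogs, followed with 364 and 481 FPKM in Hampshire, against 992 and 484 in Mali. Next by mean came EIF3H, a subunit of eIF3, at 385 and 384 FPKM in Hampshire against 317 and 338 in Mali. EIF4G2, an eIF4G relative without the eIF4E-binding site, was at 410.0 and 259.7 FPKM in Hampshire against 325 and 299 in Mali, and EIF5A at 232 and 188 in Hampshire against 215 and 328 in Mali. In all, 13 members averaged at least 100 FPKM, and 40 of the 41 members tested lay above the median gene by mean FPKM, with EIF1AD as the exception.

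At the low end, the paralogs known as tissue-restricted were almost silent. EIF4E1B, an eIF4E paralog known from oocytes in other vertebrates, was listed at 0 in all 4 libraries. EIF5A2, the second gene for eIF5A, was at 0.274 and 0.641 FPKM in Hampshire, against 1.14 and 0.246 in Mali. These 2 genes did not reach 1 FPKM in at least 2 libraries and were not tested, leaving 41. Paralogs of 1 function therefore differed widely in level. The mean over the 4 libraries was 27.4 times higher for EIF4A2 than for EIF4A1, 22.7 times higher for EIF1 than for EIF1B, and 418 times higher for EIF5A than for EIF5A2. Subunits of 1 complex were unequal as well. EIF2S2 (eIF2 beta) averaged 14.7 times the FPKM of EIF2S1 (eIF2 alpha), and EIF3H 14.0 times that of EIF3B, although both complexes hold 1 copy of each subunit.

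**Figure D1:**
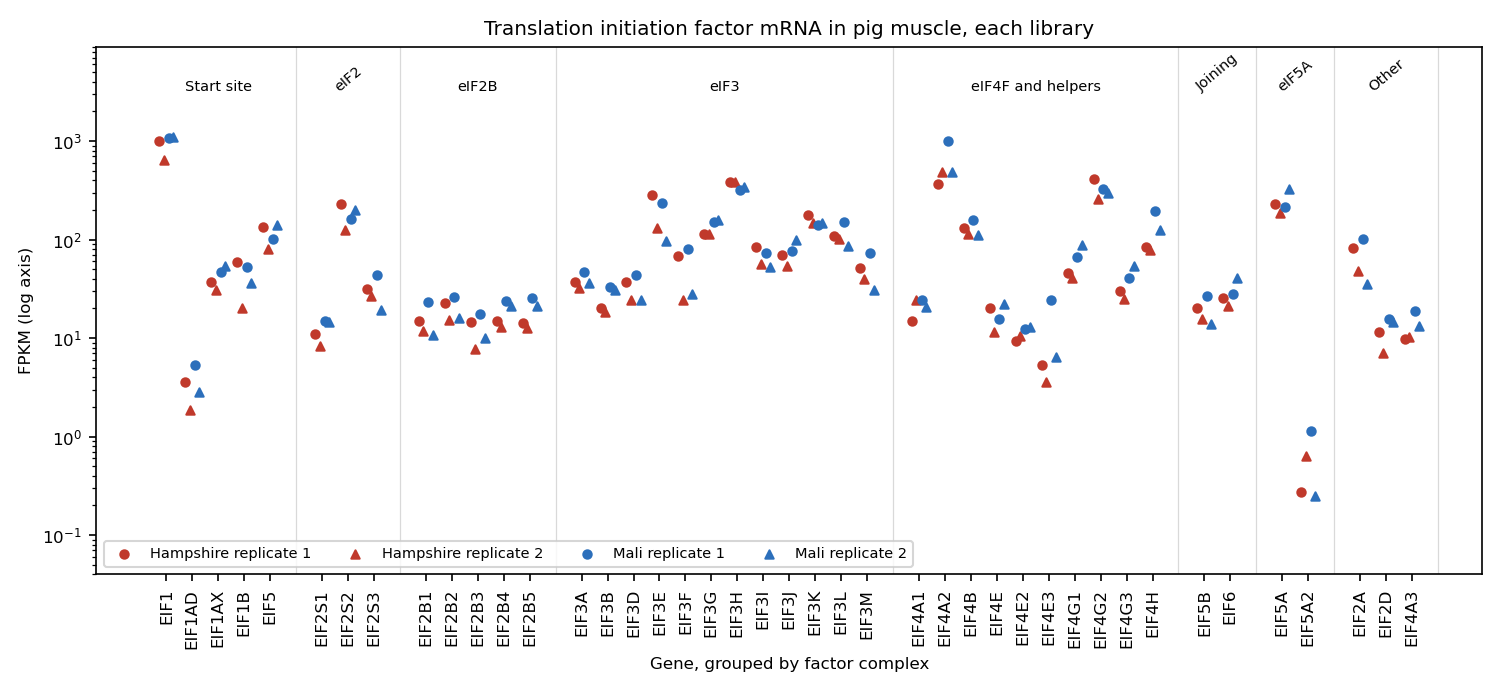
FPKM (log axis) of the 42 initiation factor genes above 0, grouped by complex. Each gene has 4 points, 1 per library, with Hampshire in red to the left and Mali in blue to the right; circles are replicate 1 and triangles replicate 2. EIF1, EIF4A2, EIF3H and EIF4G2 stand at the top and EIF5A2 at the bottom, and the 4 points of EIF3H lie close together where those of EIF4E3 and EIF3F are spread.

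Most initiation factors had lower values in Hampshire than in Mali, but no single gene passed the test. Of the 41 tested, 34 had a log2 difference below 0, where 60.5% of all 10075 genes tested did. Both Hampshire libraries lay below both Mali libraries for 17 of the 41 (41.5%), where 23.6% of all genes did. The reverse held for 2, EIF3H and EIF3K, where 13.0% of all genes did. With limma on log2(FPKM + 1) and Benjamini-Hochberg adjustment over all genes, 0 of the 41 had an adjusted p under 0.05 (0.0% of all genes did), and 0 had an unadjusted p under 0.05, where 7.09% of all genes did. The lowest adjusted p among them was 0.732, for EIF4E3. With the replicate number as a block, 0 of the 41 passed (2.59% of all genes did). The median log2 difference of the 41 was -0.29, beside -0.12 for all genes tested. Most members lie above the median gene in level, and among genes with a mean of at least 5 FPKM the contrast was smaller. The medians there were -0.28 for the members and -0.22 for all genes. Of the members, 33 lay below 0 (82.5%, and 68.6% of all genes) and 17 were separated as lower (42.5% and 28.2%).

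The number of lower values moved with scaling. The members' share below 0 came close to that of all genes only with quantile normalization or when either of 2 libraries was left out. Below 0 were 40 of 41 members after scaling to a common FPKM sum (97.6%, and 78.7% of all genes), 27 with median-of-ratios size factors (65.9% and 47.3%) and 24 with quantile normalization (58.5% and 54.8%). The members' median was -0.62 with the common sum (all genes -0.40), -0.13 with size factors (all genes 0.03) and -0.06 with quantile normalization (all genes -0.05). Separated as lower in Hampshire were 19 members with the common sum (46.3%, and 34.7% of all genes), 15 with size factors (36.6% and 15.2%) and 13 with quantile normalization (31.7% and 19.7%).

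Hampshire replicate 2 was the lowest of the 4 libraries for 25 of 41 members, where it was lowest for 32.9% of all genes, and it was the highest for none. Mali replicate 1 was the highest for 23 of 41 members, where it was highest for 28.7% of all genes. Without Hampshire replicate 2, 24 members lay below 0 (58.5%, and 58.2% of all genes) and the median was -0.11 (all genes -0.10). Without Mali replicate 1, 25 lay below 0 (61.0% and 60.3%) and the median was -0.21 (all genes -0.14). The members' share below 0 was therefore that of all genes when either library was left out. Without Hampshire replicate 1 it was 38 (92.7% and 61.5%), and without Mali replicate 2 it was 36 (87.8% and 55.6%).

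With 3 libraries more genes of any kind separate. Separated as lower were 18 members without Hampshire replicate 2 (43.9%, and 37.8% of all genes), 20 without Mali replicate 1 (48.8% and 45.2%), 28 without Hampshire replicate 1 (68.3% and 42.8%) and 31 without Mali replicate 2 (75.6% and 41.2%). Separated as higher were 7 without Hampshire replicate 2 (17.1% and 24.1%), 12 without Mali replicate 1 (29.3% and 25.7%), and 2 without either other library (4.88%, and 24.4% and 31.3% of all genes).

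The authors' deposited table holds a breed comparison of their own. None of the 43 members was called significant there, where 65 of the 30212 rows with a gene name were. With so few rows called, the lack of calls does not set the members apart. A p under 0.05 was given there to 1 member, while 3.05% of rows had one in the authors' deposited table. This was EIF4E3, with p = 0.00435 and q = 0.233 in the authors' deposited table.

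**Figure D2:**
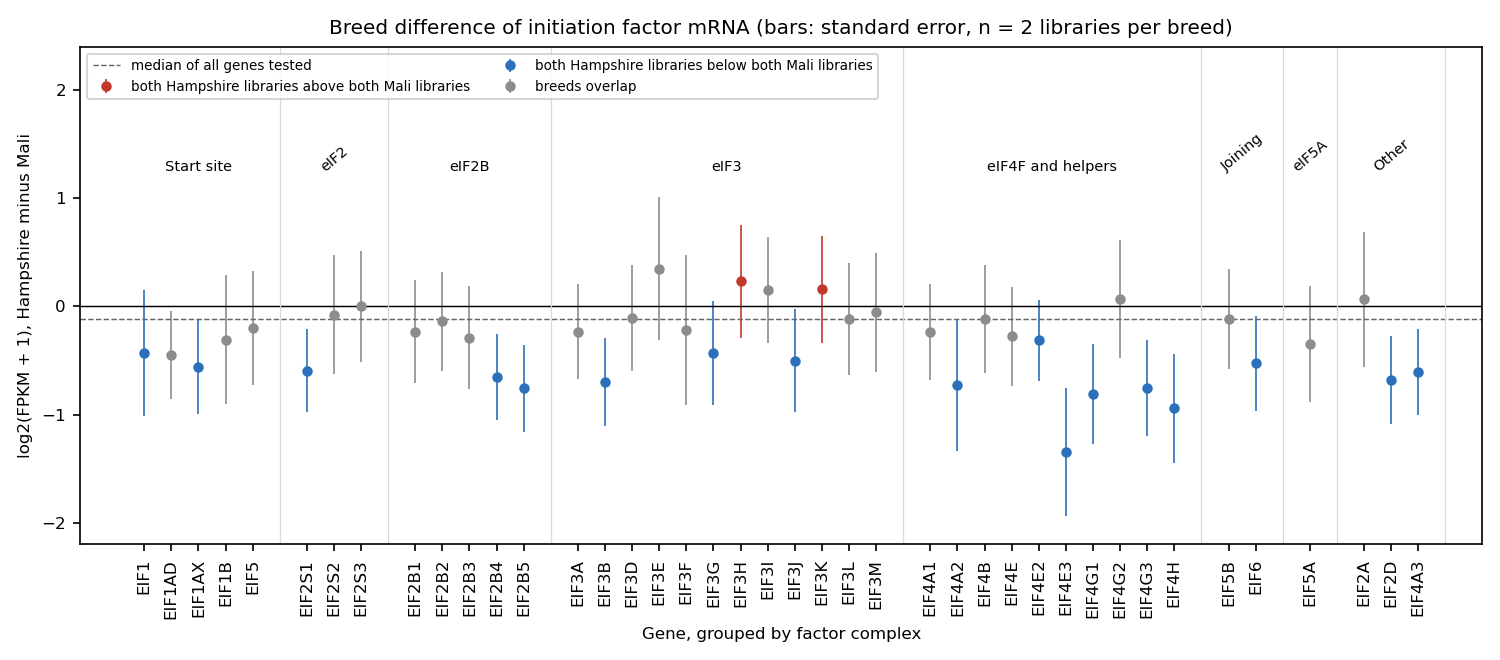
Difference in log2(FPKM + 1), Hampshire minus Mali, for the 41 tested genes grouped by complex. Points are limma estimates from 2 libraries per breed, bars are standard errors, colour marks whether the breeds overlap, and the dashed line is the median of all genes (-0.12). Blue points, 17 in all, lie below 0, and the 2 red points are EIF3H and EIF3K, which lie below 0 with a common FPKM sum.

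The start-site factors were all lower on average in Hampshire, 5 of 5, with a median log2 difference of -0.43, which came to -0.75 on leaving out Hampshire replicate 1 and -0.11 on leaving out Hampshire replicate 2. Separated as lower were 2 of the 5 (23.6% of all genes). EIF1AX, the X-linked gene of the scanning factor eIF1A, was at 37.0 and 30.7 FPKM in Hampshire, against 46.7 and 53.8 in Mali. The breeds did not overlap, and the log2 difference was -0.56 (standard error, SE, 0.44). For EIF1 the Hampshire libraries were again both lower, but replicate 1 (1008) was close to the Mali values, and the log2 difference was -0.43 (SE 0.58). EIF1B, a near-identical relative of EIF1, was at 59.6 and 20.4 FPKM in Hampshire against 52.2 and 36.2 in Mali. Its highest and its lowest value both came from Hampshire, and its log2 difference of -0.31 turned to 0.44 without Hampshire replicate 2. EIF5, the activator of eIF2's GTP hydrolysis, also overlapped, at 133 and 80.1 FPKM in Hampshire, against 101 and 139.7 in Mali. EIF1AD, named for its eIF1A domain, was the lowest of these at 3.58 and 1.87 FPKM in Hampshire against 5.39 and 2.84 in Mali, with a log2 difference of -0.45.

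The 3 subunits of eIF2 were not alike. EIF2S1, the alpha subunit whose phosphorylation slows initiation under stress, was at 10.9 and 8.24 FPKM in Hampshire, against 15.0 and 14.7 in Mali. Its breeds did not overlap, and the log2 difference was -0.60 (SE 0.38). EIF2S2, the beta subunit, was at 231 and 126 FPKM in Hampshire against 162 and 200.5 in Mali, and EIF2S3, the X-linked GTP-binding gamma subunit, at 31.6 and 26.6 in Hampshire against 43.1 and 19.3 in Mali. Both Mali values of EIF2S2 lay between its Hampshire values and both Hampshire values of EIF2S3 between its Mali values, so the breeds overlapped. The median of the 3 was -0.08 and turned to 0.10 with size factors and 0.04 with quantile normalization. EIF2S2 overlaps ASIP on the other strand, which was at no more than 0.140 FPKM.

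All 5 subunits of eIF2B, the exchange factor that reloads eIF2, were lower on average in Hampshire, with a median log2 difference of -0.29. That median turned to 0.08 without Mali replicate 1, and it was -0.75 without Mali replicate 2 and -0.13 with size factors. The catalytic subunit EIF2B5 was at 14.2 and 12.5 FPKM in Hampshire, against 25.7 and 21.0 in Mali, a log2 difference of -0.76 (SE 0.40, limma adjusted p = 0.806). The regulatory subunit EIF2B4 was at 14.9 and 12.9 FPKM in Hampshire against 23.96 and 20.9 in Mali, a log2 difference of -0.65. These were the 2 of 5 subunits separated by breed, both as lower, where 23.6% of all genes were. The remaining subunits overlapped: EIF2B1 was at 15.0 and 11.9 FPKM in Hampshire against 23.2 and 10.8 in Mali, EIF2B2 at 22.7 and 15.2 in Hampshire against 26.4 and 15.9 in Mali, and EIF2B3 at 14.7 and 7.70 in Hampshire against 17.5 and 10.04 in Mali. In each of them the replicate 1 library was the higher one in either breed.

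Of the 12 measured subunits of eIF3, 8 were lower and 4 higher on average in Hampshire, with a median log2 difference of -0.11, close to that of all genes (-0.12); it was 0.07 with size factors and 0.08 with quantile normalization. The subunits separated as lower were EIF3B, EIF3G and EIF3J, 3 of 12 (25.0%, where 23.6% of all genes were), and 2 were separated as higher (16.7%, where 13.0% of all genes were). Both shares are near those of all genes. EIF3B, a scaffold subunit, was at 20.1 and 18.2 FPKM in Hampshire, against 32.7 and 30.8 in Mali, a log2 difference of -0.70 (SE 0.41). EIF3G, an RNA-binding subunit, was at 113 and 113 FPKM in Hampshire against 151 and 156 in Mali, a log2 difference of -0.43 (SE 0.48). EIF3J, a loosely bound subunit near the decoding site, was at 69.7 and 53.6 FPKM in Hampshire against 76.6 and 98.6 in Mali, a log2 difference of -0.50.

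In the other direction, EIF3H at 385 and 384 FPKM in Hampshire lay above its Mali values of 317 and 338. Its log2 difference was 0.23 (SE 0.52), and it turned to -0.11 with a common FPKM sum. EIF3K was at 176 and 147 FPKM in Hampshire, against 141 and 147 in Mali. Here the second Hampshire library exceeded the highest Mali library by less than 0.1 FPKM, so the separation rests on replicate 1. The log2 difference of EIF3K was 0.16 (SE 0.49), and -0.19 with a common sum. Neither passed the test (limma adjusted p = 0.973 and 0.980).

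The remaining eIF3 subunits overlapped between breeds, and several differed more between the libraries of a breed than between breeds. EIF3E was at 283 and 132 FPKM in Hampshire, against 235 and 97.3 in Mali, and EIF3F at 68.5 and 24.3 in Hampshire against 80.8 and 28.1 in Mali. In both genes replicate 1 was over 2 times replicate 2 in each breed. The log2 difference of EIF3E was 0.35 (SE 0.66), and it was -0.20 without Hampshire replicate 1 and -0.28 without Mali replicate 2. EIF3M showed its extremes in Mali, at 51.6 and 39.7 FPKM in Hampshire, against 72.3 and 30.4 in Mali, as did EIF3L at 108 and 102 in Hampshire against 149.6 and 85.8 in Mali. EIF3A, the largest scaffold subunit, was at 37.5 and 32.3 FPKM in Hampshire against 47.1 and 35.8 in Mali. EIF3D, which can bind the cap of some mRNAs, was at 36.9 and 24.4 in Hampshire against 43.5 and 24.1 in Mali, and EIF3I at 84.7 and 56.7 in Hampshire against 73.0 and 53.0 in Mali.

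No row carries the symbol EIF3C. The deposited annotation gives the protein name eIF3 subunit C to LOC110260088, which is no member by its symbol. It was at 28.8 and 26.3 FPKM in Hampshire, against 61.1 and 49.7 in Mali, with no overlap, a log2 difference of -0.97 (SE 0.44) and a limma adjusted p of 0.742. This gene was noticed after its values were seen.

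The eIF4F group, with eIF4F, its paralogs and its helpers, held the 3 members with the largest differences in size, EIF4E3, EIF4H and EIF4G1. Of 10 tested members, 9 were lower on average in Hampshire, 6 were separated as lower (60.0%, where 23.6% of all genes were) and none was separated as higher. The median log2 difference was -0.52. EIF4E3, a cap-binding paralog of eIF4E, was at 5.33 and 3.57 FPKM in Hampshire, against 24.3 and 6.40 in Mali. All its Hampshire values were lower, but Mali replicate 1 stood far above Mali replicate 2. The log2 difference was -1.35 (SE 0.60, limma adjusted p = 0.732), and it was -0.46 without Mali replicate 1 and -2.23 without Mali replicate 2. GPR27, which overlaps EIF4E3 on the other strand by 298 bases, was at 0.813 and 0.488 FPKM in Hampshire against 2.61 and 0.907 in Mali, in the same order of libraries, and whether reads were shared was not tested.

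EIF4H, which stimulates the helicase eIF4A, was at 83.5 and 77.8 FPKM in Hampshire, against 193 and 126 in Mali. The Hampshire libraries lay close together and below both Mali libraries, with a log2 difference of -0.94 and a standard error of 0.50 (limma adjusted p = 0.815). The related helper EIF4B did not show this, at 130.0 and 114 FPKM in Hampshire against 158 and 111 in Mali, and its breeds overlapped. Both main scaffold genes were separated. EIF4G1 was at 45.7 and 40.9 FPKM in Hampshire, against 66.6 and 87.8 in Mali, a log2 difference of -0.81 (SE 0.46). EIF4G3 was at 29.8 and 24.7 FPKM in Hampshire against 40.2 and 53.7 in Mali, a log2 difference of -0.75 (SE 0.44). EIF4G2, the relative that lacks the eIF4E site, overlapped between breeds at the values given above.

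EIF4A2, the helicase paralog that dominated in this muscle, was separated only narrowly: its second Hampshire library, at 481 FPKM, lay just under the lower Mali library, at 484. Its log2 difference was -0.73 (SE 0.61), and it was -0.21 without Mali replicate 1. EIF4A1 overlapped, at 14.7 and 24.5 FPKM in Hampshire, against 24.6 and 20.8 in Mali. The cap-binding gene EIF4E was at 20.1 and 11.5 FPKM in Hampshire against 15.6 and 22.4 in Mali and overlapped too. EIF4E2, a cap-binding paralog linked to repression, was at 9.43 and 10.5 FPKM in Hampshire, against 12.3 and 13.0 in Mali, separated by a log2 difference of -0.31 (SE 0.37).

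Of the late-acting factors, EIF6, which keeps the large subunit from joining too early, was at 25.6 and 21.1 FPKM in Hampshire, against 28.2 and 40.7 in Mali. Its log2 difference was -0.52 (SE 0.44), and the breeds did not overlap. EIF5B, the GTPase of subunit joining, was at 20.2 and 15.5 FPKM in Hampshire against 26.5 and 14.0 in Mali and overlapped. EIF5A, which carries the modified lysine hypusine and helps peptide bond formation, had Hampshire values of 232 and 188 FPKM around the lower Mali value of 215, the other Mali value being 328. Its log2 difference was -0.35 (SE 0.54), and it was -0.04 without Mali replicate 2. Of the enzymes that make hypusine, DHPS was at 33.0 and 25.1 FPKM in Hampshire against 38.8 and 42.3 in Mali, and DOHH at 6.01 and 5.78 in Hampshire against 6.53 and 8.52 in Mali, both separated as lower in Hampshire. Among the other members, EIF2D, a factor of tRNA delivery outside the eIF2 route, was at 11.6 and 7.04 FPKM in Hampshire, against 15.6 and 14.6 in Mali, a log2 difference of -0.68 (SE 0.41). EIF4A3, a helicase of the exon junction complex, was at 9.87 and 10.3 FPKM in Hampshire against 19.0 and 13.3 in Mali, a log2 difference of -0.61. EIF2A, which is distinct from eIF2 alpha, overlapped at 81.5 and 48.0 FPKM in Hampshire against 100.5 and 35.4 in Mali.

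The complexes were then compared within each library, since a ratio of 2 genes of a library does not depend on how that library was scaled. Of 6 ratios between related genes, 2 did not overlap between breeds, and of all single genes tested 36.6% did not. EIF4G2 over EIF4G1 was 8.98 and 6.34 in Hampshire and 4.87 and 3.40 in Mali, a difference of 0.89 on the log2 scale. EIF4B over EIF4H was 1.56 and 1.47 in Hampshire and 0.816 and 0.887 in Mali. The libraries of each breed lay close together and the breeds differed by 0.83 on that scale. EIF4G3 over EIF4G1, at 0.652 and 0.604 in Hampshire against 0.604 and 0.611 in Mali, was nearly the same in all 4 libraries. EIF4A2 over EIF4A1 was 24.7 and 19.6 in Hampshire and 40.4 and 23.2 in Mali and overlapped, as did EIF1B over EIF1 and EIF4E2 over EIF4E. EIF5A2 over EIF5A was not used because EIF5A2 was too low.

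Of 6 ratios between groups (geometric means of FPKM), 3 did not overlap. The eIF4F group over eIF3 was 0.529 and 0.647 in Hampshire and 0.744 and 0.857 in Mali, a log2 difference of -0.45. The eIF4F group over eIF2 was 1.04 and 1.34 in Hampshire against 1.495 and 1.486 in Mali, a log2 difference of -0.33. For eIF2B over eIF2 the values were 0.373 and 0.389 in Hampshire against 0.491 and 0.390 in Mali, where the second library of either breed was nearly equal. eIF3 over eIF2 was close to 2 throughout, at 1.97 and 2.07 in Hampshire and 2.01 and 1.73 in Mali. With 2 libraries per breed an exact two-sided permutation test cannot give a p below 0.333, which all 5 of these separated ratios had. That p is also the share of all orders of the 4 libraries in which the breeds do not overlap. The counts without overlap, 2 of 6 and 3 of 6, are not far from that share. Adjusted over the 6 ratios of a family, p was 1.0 for the gene ratios and 0.667 for the group ratios, so no ratio passed.

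**Figure D3:**
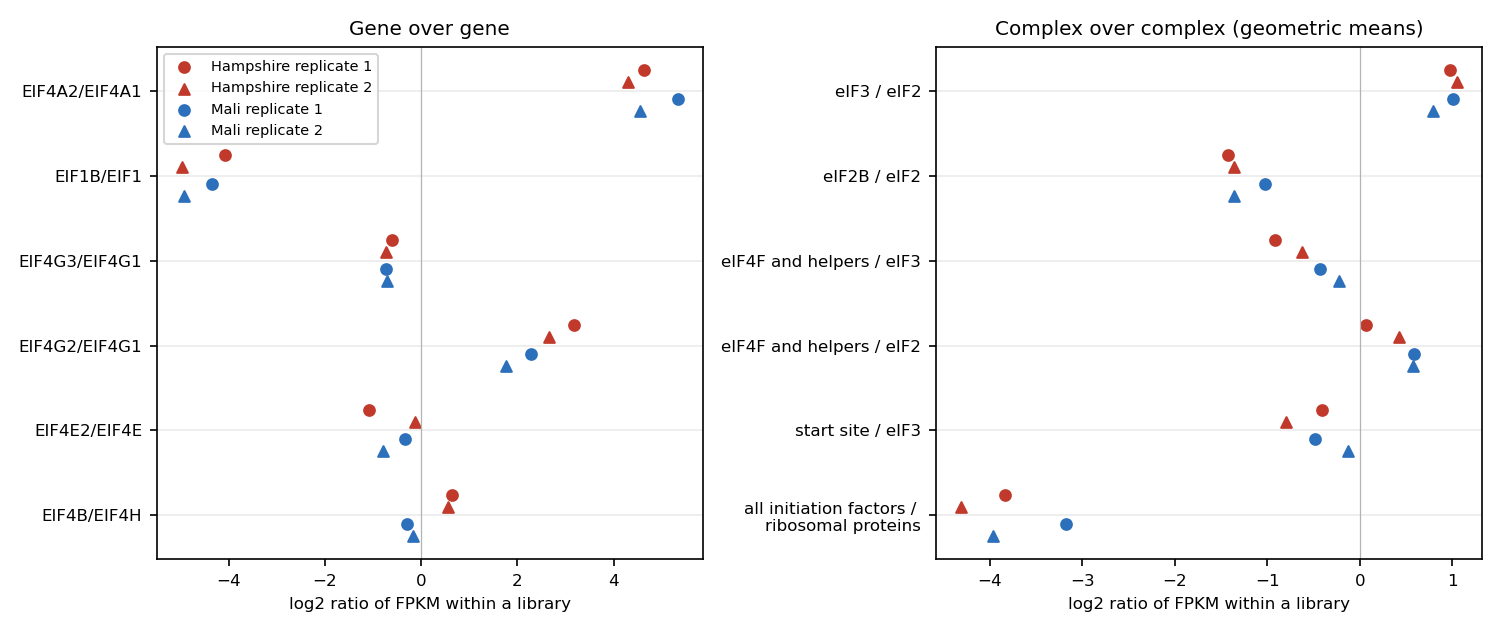
Log2 ratios of FPKM within each library, for 6 pairs of related genes (left) and 6 pairs of gene groups (right). Points are single libraries, Hampshire in red above Mali in blue, with circles for replicate 1 and triangles for replicate 2. EIF4G2 over EIF4G1 and EIF4B over EIF4H lie further right in Hampshire, and the eIF4F group over eIF3 further left, without overlap.

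In their low values, libraries of the same replicate number more often shared a single ratio across breeds. Among values under 0.3 FPKM, the ratio of Hampshire replicate 1 to Mali replicate 1 took a single value (to 0.002 on the log2 scale) in 8.65% of rows, and that of the replicates 2 in 1.28%, against at most 0.393% in other combinations. Breed differences were also taken within the replicates 1 and within the replicates 2, a pairing that the labels do not give. Among the 41 members, 22 were lower in Hampshire in both (35.4% of all genes were). A further 4 were higher in both, for which the share of all genes was not counted. The eIF4F group had medians of -0.48 and -0.48, all initiation factors -0.33 and -0.34, and eIF2B -0.60 and -0.34. By contrast the start-site factors had -0.08 among replicates 1 and -0.79 among replicates 2, EIF5A 0.11 and -0.80, and eIF3 -0.23 and 0.01.

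Genes that regulate initiation were described beside the factors. Of 5 tested eIF2 kinases and phosphatase subunits, 1 was separated as higher in Hampshire and 1 as lower (20.0% each, where 13.0% and 23.6% of all genes were). EIF2AK2 (PKR), an interferon-induced kinase of eIF2 alpha, was at 4.09 and 1.76 FPKM in Hampshire, against 0.657 and 0.628 in Mali, a log2 difference of 1.19 (SE 0.37, limma adjusted p = 0.563). It was called in the authors' deposited table, with q = 0.0483. EIF2AK2 reached 1 FPKM only in the Hampshire libraries, so the filter that let it be tested also fixed its separation. PPP1R15A (GADD34), which directs a phosphatase to eIF2 alpha, was at 2.69 and 4.39 FPKM in Hampshire against 11.2 and 9.96 in Mali, a log2 difference of -1.37 (SE 0.37, limma adjusted p = 0.496). EIF2AK1, EIF2AK4 and PPP1R15B overlapped between breeds, and EIF2AK3 was too low to be tested.

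Of 9 targets of ATF4, the transcription factor made when eIF2 alpha is phosphorylated, 6 were tested, of which 3 were higher and 3 lower on average in Hampshire. Separated were 2 as higher, where 13.0% of all genes were, and 1 as lower, where 23.6% of all genes were. Their median log2 difference was 0.65, and -0.30 with ATF4 itself counted, as in the plot of lists. The serine synthesis genes PHGDH and PSAT1 were separated as higher in Hampshire. Both reached 1 FPKM only in the Hampshire libraries, so the filter that let them be tested also fixed that separation. PHGDH was at 47.4 and 6.03 FPKM in Hampshire against 0.488 and 0.600 in Mali, and PSAT1 at 20.8 and 3.38 in Hampshire against 0.691 and 0.969 in Mali, so that Hampshire replicate 1 was far above replicate 2 in both. ASNS, asparagine synthetase, overlapped at 108 and 19.9 FPKM in Hampshire against 5.13 and 39.7 in Mali. VLDLR, a lipoprotein receptor, was separated as lower, at 51.0 and 49.2 FPKM in Hampshire against 52.8 and 77.4 in Mali. ATF4 itself was at 1531 and 1057 FPKM in Hampshire against 1209 and 2124 in Mali, and DDIT3 at 14.9 and 4.82 in Hampshire against 10.9 and 10.8 in Mali, both overlapping. None of the 7 genes passed the test as designed (lowest limma adjusted p = 0.424, for PHGDH). PHGDH and PSAT1 did pass under some other settings, and for PHGDH with a common FPKM sum the limma adjusted p was 8.13e-05. In that fit limma took the variance from the trend over all genes, so this p does not reflect the wide spread of PHGDH within Hampshire.

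Among 17 tested cap regulators, 6 were separated as lower in Hampshire (35.3%, where 23.6% of all genes were) and 1 as higher (5.88%, where 13.0% were), with a median log2 difference of -0.25 that was 0.02 with quantile normalization. PAIP2B, an inhibitor of the poly(A)-binding protein, was at 5.46 and 7.24 FPKM in Hampshire, against 20.4 and 11.5 in Mali, a log2 difference of -1.16 (SE 0.43, limma adjusted p = 0.692). MKNK2, a kinase of eIF4E, was at 37.4 and 24.7 FPKM in Hampshire against 63.5 and 49.0 in Mali. EIF4EBP2, a repressor that binds eIF4E, was the one separated as higher, at 38.8 and 25.1 FPKM in Hampshire against 23.5 and 16.7 in Mali. EIF4EBP1, another such repressor, overlapped widely at 127 and 143 FPKM in Hampshire against 285 and 46.1 in Mali.

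The later steps of translation were listed in the same way. Of 78 tested cytosolic ribosomal protein genes, 61 were higher on average in Hampshire, 15 were separated as higher (19.2%, where 13.0% of all genes were) and none as lower (23.6% of all genes were), with a median log2 difference of 0.15. The median turned to -0.20 with a common FPKM sum. RPS3 was at 582 and 912 FPKM in Hampshire, against 401 and 559.7 in Mali. The 12 elongation genes divided evenly, 6 higher and 6 lower, with 4 separated each way (33.3%, where 13.0% of all genes were separated as higher and 23.6% as lower). DPH1, an enzyme of the diphthamide modification of eEF2, had the lowest p of the list, at 2.28 and 1.03 FPKM in Hampshire against 3.98 and 2.91 in Mali, a log2 difference of -0.77 (SE 0.36). The elongation factor EEF1A1 was at 693 and 1157 FPKM in Hampshire against 668 and 456 in Mali and its muscle form EEF1A2 at 2025 and 2169 in Hampshire against 1631 and 1942 in Mali. All initiation factors over ribosomal proteins gave a ratio of 0.0700 and 0.0502 in Hampshire and 0.110 and 0.0641 in Mali, which overlapped. The 3 termination genes, led by the release factor ETF1 at 39.4 and 19.0 FPKM in Hampshire against 62.3 and 38.3 in Mali, overlapped. Of the 6 mitochondrial translation factors 5 were lower on average and 2 were separated as lower (33.3%, where 23.6% of all genes were), MTIF3 at 2.76 and 2.46 FPKM in Hampshire against 4.55 and 5.61 in Mali and TSFM at 13.4 and 12.3 in Hampshire against 17.3 and 20.6 in Mali. ABCE1, a ribosome recycling factor, and DENR, of reinitiation, overlapped. None of these genes passed the test. Proteasome genes, a list unrelated to translation, had 29 of 37 separated as lower (78.4%, where 23.6% of all genes were) and a median of -0.98. Another 2 of them, PSMB8 and PSMB9, were separated as higher (5.41%, where 13.0% of all genes were).

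**Figure D4:**
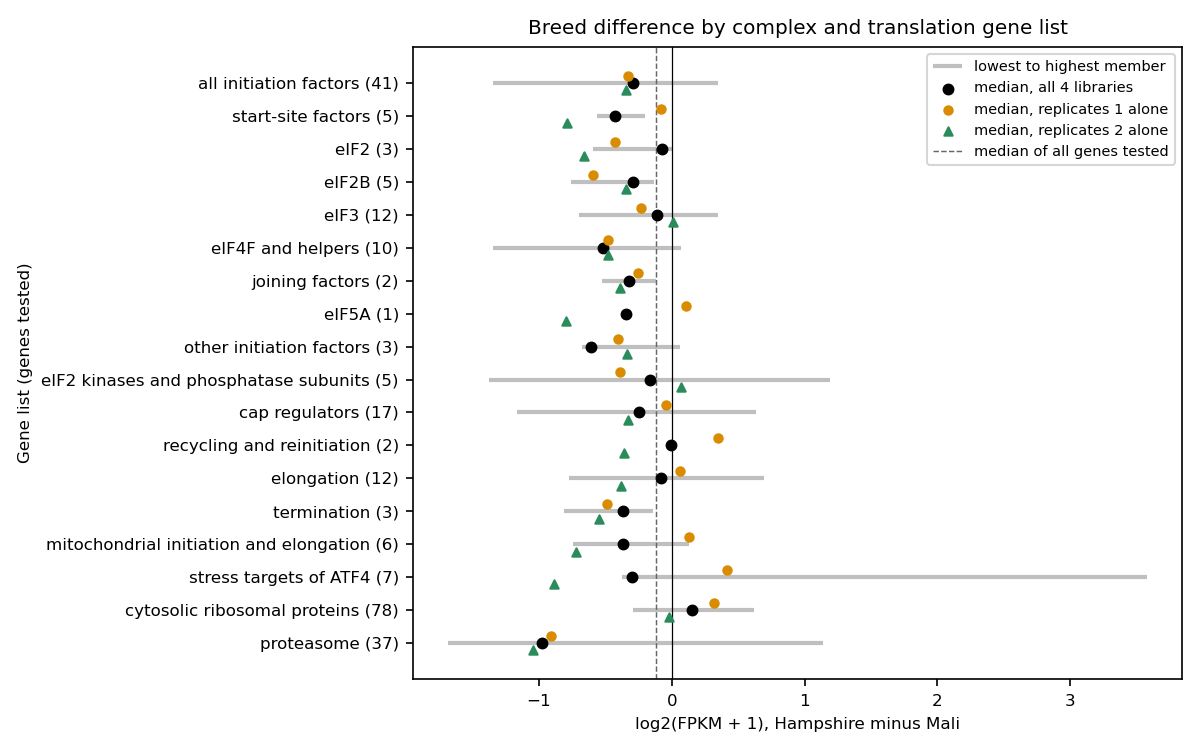
Difference in log2(FPKM + 1), Hampshire minus Mali, for each complex and translation gene list, with the number of genes tested. Black points are medians over all 4 libraries, orange and green points medians within the replicates 1 and the replicates 2, grey bars run from the lowest to the highest member, and the dashed line is the median of all genes. The eIF4F group (-0.52) lies left of eIF3 (-0.11), and ribosomal proteins (0.15, or -0.20 with a common FPKM sum) lie to the right.

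The 42 members placed on chromosomes of the Sscrofa11.1 assembly lie on 15 chromosomes, with 7 on chromosome 13, and EIF5 lies on an unplaced scaffold. EIF2B5 (chromosome 13, 122060408 to 122070327) and EIF4G1 (122203488 to 122225371) have 133 kb between them, and both were separated as lower in Hampshire. EIF4A2 lies on the same chromosome from 124582822. EIF4A1 (chromosome 12, from 52868479) and EIF5A (to 52664686) have 204 kb between them and both overlapped between breeds. In the deposited annotation EIF2B4, EIF3B and EIF4B are listed as lncRNA, not protein-coding. A total of 10 members overlap another annotated gene, and the labels do not state whether counting used strand. The overlap matters most for EIF1AD, whose partner BANF1 was at 347 and 186 FPKM in Hampshire, against 224 and 319 in Mali, and for EIF2B2, whose partner ACYP1 was at 16.6 and 11.2 in Hampshire against 13.7 and 14.3 in Mali, so the values of these 2 genes are uncertain. EIF1 and EIF1B, EIF4A1 and EIF4A2, and EIF5A and EIF5A2 are close paralogs, and how reads shared by them were assigned is not stated.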

How the data were processed

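Biopsied muscle of 2 Hampshire and 2 Mali libraries was sequenced; replicate numbers follow accession order. Trizol extraction and Illumina TruSeq library preparation are given per the labels' protocols. The submitters' processing notes name HISAT2, Bowtie 0.12.2, Picard and Cuffdiff without roles. The authors deposited FPKM per gene and library. The deposited table also has mean FPKM per breed and, for a comparison run by the authors, a test score, p-value and q-value per gene. FPKM carry no read depth, so precision is known only from the replicates.

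A row lacking a gene name was dropped, 26 date-like symbols were restored, and rows of a symbol were summed. Genes reaching 1 FPKM in 2 or more libraries were compared on the log2(FPKM + 1) scale using limma 3.58.1 (R 4.3.3, mean-variance trend, two-sided). Fold changes on this scale understate the change of low genes. The fit was tested on simulated data. All 43 members matched the RefSeq table of Sscrofa11.1 by symbol, start and end, and its coordinates are used. Ratios were tested with exact permutation tests (scipy 1.17.1).

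Members, lists and tests were chosen with earlier results of these data known. Per complex, up to 4 members with the lowest p and the most and least abundant were to be named; all are given here, with log2 differences from 0.3 upward in size, and for EIF3H and EIF3K. For other lists, up to 3 genes by lowest p were to be named; the rest named were chosen after their values were seen. A planned search of promoters was not analysed here. The alternatives were other pseudocounts, filters, scalings, variance settings, the highest row per symbol, each library left out, and a replicate block.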

Additional observations from a re-analysis of the deposited data

How the results depend on the processing

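No initiation factor gene passed the test under any of the 16 alternatives, which were 12 other settings and 4 left-out libraries. Among all genes, 0 were called as reported, 1 with a mean of at least 5 FPKM, 66 with a common FPKM sum, 63 with a common sum outside the mitochondrial genome, 261 with the title suffix as a replicate block, 0 with that block and size factors, and 0 to 6 when 1 library was left out. With a common FPKM sum the medians were -0.62 for all initiation factors, -0.42 for eIF2, -0.45 for eIF3, -0.85 for the eIF4F group, -0.66 for joining factors, -0.69 for EIF5A and -0.94 for the other members, beside -0.40 for all genes. The eIF4F median was -0.35 with size factors, with and without the replicate block, and -0.30 with quantile normalization, where the joining median was -0.087. No member was separated as higher with the common sum (4.89% of all genes were), the common sum outside the mitochondrial genome (9.5%) or quantile normalization (15.2%). EIF3H and EIF3K turned to -0.11 and -0.19 with a common sum.

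With 1 library left out, the members separated as lower ranged from 18 to 31 (37.8% to 45.2% of all genes) and as higher from 2 to 12 (24.1% to 31.3% of all genes). The medians ranged from -0.53 to -0.11 for all initiation factors, -0.75 to -0.11 for the start-site factors, -0.65 to -0.04 for EIF5A, -0.56 to 0.12 for eIF2, -0.75 to 0.083 for eIF2B, -0.42 to 0.24 for eIF3 and -0.61 to -0.41 for the eIF4F group. EIF1B ranged from -1.06 to 0.44 and EIF3E from -0.28 to 0.98. The ratio differences ranged from -0.34 to 0.56 for EIF1B over EIF1, -0.0078 to 0.10 for EIF4G3 over EIF4G1 and -0.53 to 0.43 for EIF4E2 over EIF4E. The cause of these changes was not tested.

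The libraries share a title suffix across breeds, which the labels do not explain. Deviations from the breed means correlated with r = 0.275 across genes between libraries of the same suffix, and with 2 pairs this is a hint from the data, not the design. With the suffix as a replicate block, 0 of 41 members passed while EIF2AK2 (adjusted p = 0.0409) and PPP1R15A (0.0478) did, as did PHGDH (2.43e-05) and PSAT1 (7.78e-04). All 4 of these calls were lost when size factors were added to the block, where 0 of all genes passed. Of these 4 genes, EIF2AK2, PHGDH and PSAT1 reached 1 FPKM only in Hampshire and were tested through that breed alone. PHGDH also passed with either common sum and PSAT1 with the one outside the mitochondrial genome, and PSMD2 with a common sum. The fits of all 4 libraries have 2 residual degrees of freedom, those with the block or a library left out have 1, and FPKM give no counting error. The prior degrees of freedom that limma drew from all genes were 5.24 as reported, 27.4 with the block and 6.18 with block and size factors. They were infinite with either common sum, so the p-values of those fits take no account of a gene's own spread.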
